A study of Mus musculus with 6 samples.

Results

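The metallothioneins Mt1 and Mt2, their transcription factor Mtf1 and the zinc transporters Slc30a1 and Slc39a10 were followed in cultured primary pulmonary endothelial cells of C57BL/6 mice. The genes were chosen by name, with earlier results of these data known, and all 5 were found among the 33006 gene symbols of the deposited count tables. All cells grew in an endothelial basal medium with its supplement pack. At 80% confluence they received water (control, 3 libraries) or 300 uM hydrogen peroxide (H2O2, 3 libraries) for 6 hours, and each library was prepared from 100 ng of total RNA. Nothing in the labels ties the libraries of a group to separate cultures or animals, so p-values measure the spread between libraries, which may be technical.

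Metallothioneins are small proteins rich in cysteine that bind zinc and copper and give up zinc when their thiols are oxidised. Free zinc is sensed by the zinc finger protein MTF1, which then binds metal response elements (MREs) in DNA and raises transcription of Mt1, Mt2 and the zinc exporter Slc30a1. The same factor lowers transcription of the importer Slc39a10 when zinc is plentiful. Oxidants and cadmium are among the treatments known to raise metallothionein transcripts in cultured cells.

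Mt2 and Mt1 are neighbours on chromosome 8 (mm10, GENCODE M21, plus strand). Mt2 spans 94172664 to 94173568 and Mt1 spans 94179082 to 94180327, with 5514 bases from the end of Mt2 to the start of Mt1. Slc30a1 lies on chromosome 1 at 191906767 to 191913247 (plus strand) and Slc39a10 on the same chromosome at 46807544 to 46892852 (minus strand). Mtf1 lies on chromosome 4 at 124802104 to 124849800 (plus strand). The main transcripts of Mt1 and Mt2 have 549 and 511 bases in 3 exons each, against 7631 bases for Mtf1, 5244 for Slc30a1 and 5498 for Slc39a10.

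The DNA just before the first annotated start sites of Mt1, Mt2 and Slc30a1 is shown because MTF1 is known to act on these 3 genes. For Mt1 and Mt2 the bases between the first and the next annotated start also hold MRE letters and are described below. The stretches are the bases before the annotated starts, from RefSeq (GRCm38.p6, plus strand), at chr8:94178839-94179081, chr8:94172368-94172617 and chr1:191906531-191906766. Capitals mark the MRE core, searched as TGCACNC and TGCGCNC on both strands.
Mt1: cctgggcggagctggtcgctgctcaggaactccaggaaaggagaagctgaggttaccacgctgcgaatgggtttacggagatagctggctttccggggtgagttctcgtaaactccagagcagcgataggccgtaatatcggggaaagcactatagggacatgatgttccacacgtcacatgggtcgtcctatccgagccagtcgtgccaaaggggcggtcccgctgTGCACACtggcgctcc
Mt2: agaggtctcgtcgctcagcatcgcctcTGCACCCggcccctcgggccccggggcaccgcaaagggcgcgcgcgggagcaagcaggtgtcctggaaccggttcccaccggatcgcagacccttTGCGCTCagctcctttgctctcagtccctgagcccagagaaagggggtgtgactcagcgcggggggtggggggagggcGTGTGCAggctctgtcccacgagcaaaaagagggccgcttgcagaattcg
Slc30a1: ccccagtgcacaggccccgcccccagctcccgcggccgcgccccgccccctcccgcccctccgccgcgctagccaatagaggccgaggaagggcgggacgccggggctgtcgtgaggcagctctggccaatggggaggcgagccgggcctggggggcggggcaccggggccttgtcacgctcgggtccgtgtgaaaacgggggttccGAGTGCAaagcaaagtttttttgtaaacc

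In the 250 bases before the RefSeq start, the MRE core was found at 3 places for Mt2, at 1 for Mt1 and at 1 for Slc30a1. Over all 32851 RefSeq start windows of that length, 21.4% held at least 1 place and 0.77% held 3 or more. The windows of Mtf1 and of both Slc39a10 starts held none of these letters. The core letters of the antioxidant response element, bound by NRF2 and searched as TGACNNNGC on both strands, were found once each for Mt2 and Slc30a1, against 10.2% of all windows with at least 1. Bases after the RefSeq start were not searched for the letters of the antioxidant response element, for Mt1 or any other gene. No place overlapped another within these windows.

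**Figure D1:**
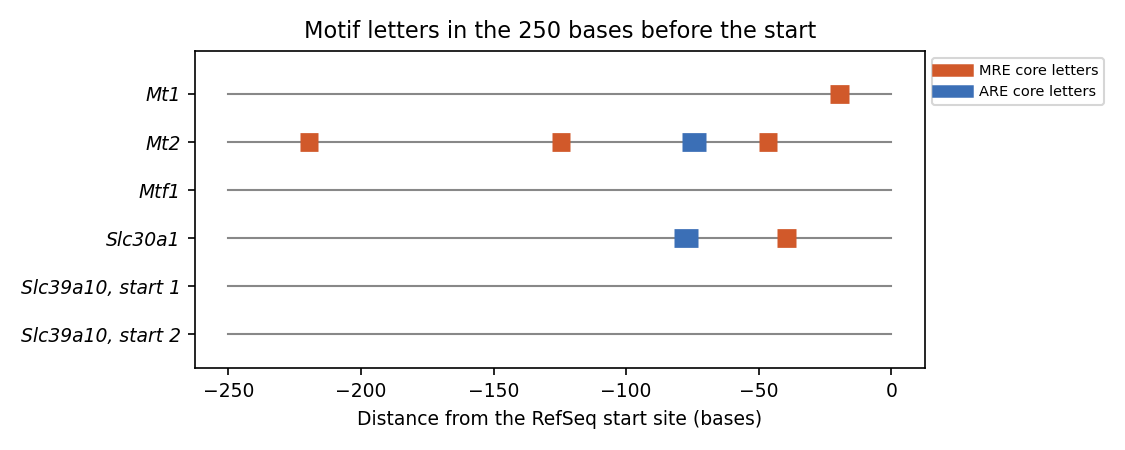
Places of the MRE core (orange) and of the antioxidant response element core (ARE, blue) in the 250 bases before each RefSeq start; the x axis is the distance from the start in bases, and Slc39a10 has 2 annotated starts. Mt2 has 3 MRE places, Mt1 and Slc30a1 have 1 each, and Mtf1 and Slc39a10 have none in this window.

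For Mt1 most of the MRE letters found lay after the first annotated start and before the next. They are thus part of transcripts from the first start but upstream of transcripts that begin at the next. The annotated Mt1 transcripts of GENCODE start first at 94179082 and next at 94179211. In the 129 bases between them the core was found at 4 places, where 14.1% of 27655 main transcripts held at least 1 place in their first 129 bases and 0.0181% held 4 or more. The first 2 places stand close together at chr8:94179091-94179115 (plus strand, GENCODE M21), shown with the cores in capitals.
Mt1 first exon: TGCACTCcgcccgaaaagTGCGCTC

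The first 196 bases of Mt2, up to its next annotated start at 94172860, held 3 places, and 0.444% of 26602 main transcripts held as many or more in their first 196 bases. A match of letters is a description of the sequence, and binding was not measured. Which of the annotated starts these cells used was not tested either.

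Control libraries held 22455388 to 25626849 gene counts and H2O2 libraries 26042296 to 27618679. H2O2 replicate 3 stood apart from the other libraries of its group, where chi-square values over genes, divided by their degrees of freedom, were 8.61 and 11 against the other H2O2 libraries and 1.62 to 2.86 for the other pairs within a group. Without it the log2 fold change (H2O2 over control) of Mt2 was -0.26 and that of Mt1 -0.19, and both still passed edgeR's test described below. Of the reads in the deposited tables, assigned to a gene or not, some were aligned to more than 1 place. These made up 11.6% ± 0.124 in the control libraries and 11.1% ± 0.0502 in the H2O2 libraries (SD, n = 3 each). The groups did not overlap, and the part of this difference in the results was not tested. Endothelial markers were abundant in every library, with a summed 3843 to 3973 CPM in controls and 4088 to 4121 CPM with H2O2 over 8 genes (CPM, counts scaled to a common library total with TMM factors). Cdh5 was the most abundant of them. Of the 8, 3 (Pecam1, Tek and Emcn) passed the test as higher with H2O2, where 9.7% of all tested genes were called higher. The part of these 3 markers in the results on the metallothioneins was not tested. The 5 epithelial markers summed to at most 0.193 CPM, led by Epcam, and the 3 mesothelial markers, led by Msln, to at most 0.558 CPM. Smooth muscle and pericyte markers, mainly Pdgfrb and Cspg4, summed to 3.76 to 5.30 CPM. Fibroblast markers summed to 24.1 to 27.9 CPM, of which Dcn made up 22.3 CPM on average in either group, with Col1a2 at 0 in all libraries. Cd68, which is not restricted to leukocytes, made up nearly all of the leukocyte sum, and Cd3e was at 0 in all libraries. No marker of another cell type passed the test.

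Across the transcriptome 20.5% of 12924 tested genes passed edgeR's quasi-likelihood test at an adjusted p (Benjamini-Hochberg) of 0.05, with 9.7% higher and 10.8% lower with H2O2. Of the 5 genes followed here, 0 rose, 2 fell (Mt2 and Mt1) and 3 did not pass. Their median log2 fold change, H2O2 over control throughout, was -0.09, against -0.0041 over all tested genes. That median is the value of Mtf1, which did not pass. With signs set aside, the median size of the log2 fold change over all tested genes was 0.09. Because the RNA came from whole cultures, fewer cells with a transcript and less of it per cell cannot be told apart.

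Mt2 was the most abundant of the 5. Its normalised counts were 276, 262 and 266 CPM in control replicates 1 to 3 and 213, 234 and 244 CPM in the H2O2 replicates. All H2O2 libraries lay below all controls, and H2O2 replicate 1 was the lowest. The means were 268 ± 7.60 and 230.3 ± 15.7 CPM (SD, n = 3 each), a fall of 14.0%. The log2 fold change was -0.22 (SE 0.0373), with an adjusted p of 1.0e-04 in edgeR's test, and the 95% interval ran from -0.29 to -0.14. Among all tested genes 16.6% had a larger log2 fold change in size. In GENCODE M21 an antisense gene, Gm45774, covers 73.5% of the exon bases of Mt2. Of the 50-base words of the main Mt2 transcript, 45.45% also occur, on either strand, in a transcript of Gm45774. No source used here gives the strand setting of the counting, so reads of Mt2 and of that gene cannot be told apart, and Gm45774 was not analysed here.

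Mt1 fell less, and its fall was less secure. Control replicates 1 to 3 had 221, 199 and 209 CPM, and the H2O2 replicates had 177, 192 and 204 CPM. The groups overlapped, since H2O2 replicate 3 was above control replicate 2. The means were 209.6 ± 11 and 191 ± 13.8 CPM (SD, n = 3 each). The log2 fold change was -0.14 (SE 0.0412; 95% interval -0.22 to -0.05), with an adjusted p of 0.019 in edgeR's test. DESeq2's test gave a similar size (-0.13) but did not call it, with an adjusted p of 0.24, where the range over all alternatives was 1.5e-06 to 0.24. In edgeR the call also ended without control replicate 1 (-0.09, adjusted p = 0.14), without control replicate 3 (-0.14, adjusted p = 0.063), without H2O2 replicate 1 (-0.08, adjusted p = 0.21) and without H2O2 replicate 2 (-0.13, adjusted p = 0.054). No exon of another gene overlaps Mt1, and none of its 50-base words occurs in a transcript of another gene, Mt2 included.

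**Figure D2:**
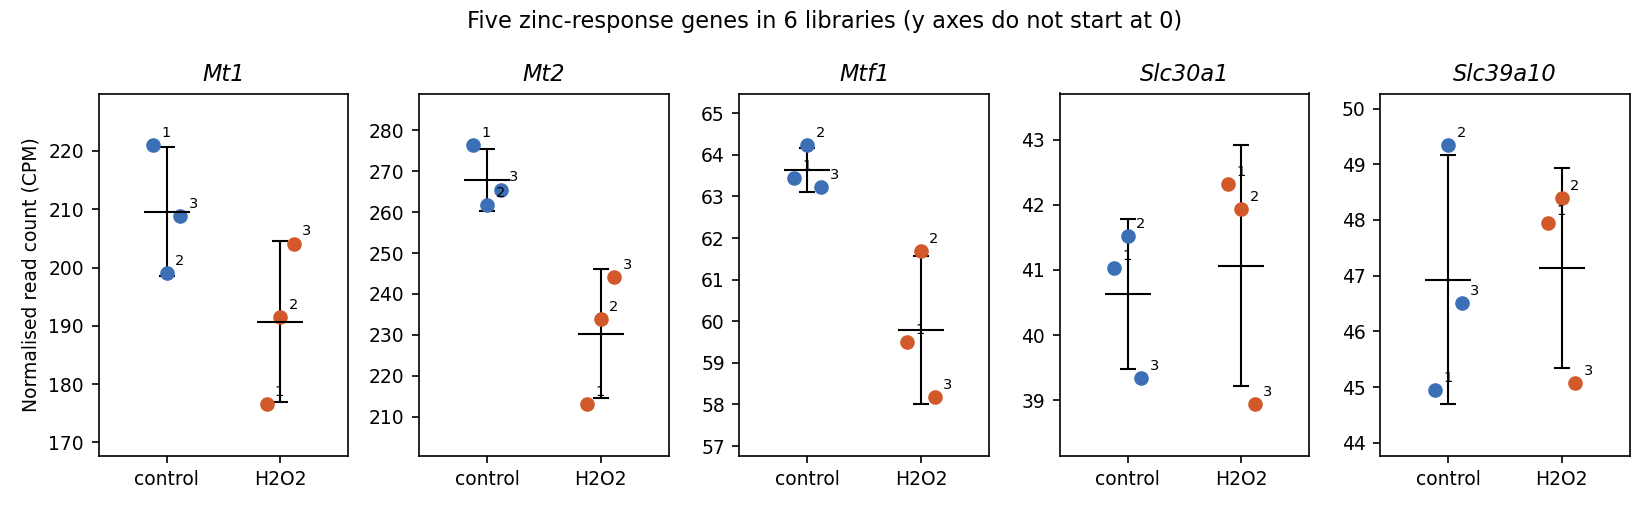
Normalised read count (CPM, y axis, not starting at 0) of each gene in the 3 control and 3 H2O2 libraries; points are libraries with their replicate number, and lines are the mean ± SD. Mt2 and Mtf1 have all H2O2 libraries below all controls, whereas Mt1, Slc30a1 and Slc39a10 overlap.

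The balance between both metallothioneins was compared inside each library, where no scaling factor enters. Mt1 had 0.800, 0.761 and 0.786 counts per count of Mt2 in controls and 0.829, 0.819 and 0.836 with H2O2. Every H2O2 library was above every control. The mean ratio went from 0.782 ± 0.0199 to 0.828 ± 0.00846 (SD, n = 3 each), a difference of 0.08 on the log2 scale. A two-sided exact permutation test gave p = 0.1, which is the smallest p that 3 libraries against 3 allow. The Mt2 counts in this ratio carry the limit given above for the antisense gene Gm45774. Mt1 and Mt2 together made up 0.0476% ± 0.00214 of all gene counts in the control libraries and 0.0422% ± 0.00319 in the H2O2 libraries (SD, n = 3 each).

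The other family members were scarce. Mt3, known from brain, had a mean of 0.676 ± 0.112 CPM without and 0.591 ± 0.118 CPM after H2O2 (SD, n = 3 each), with a log2 fold change of -0.18 (SE 0.326) that did not pass. Mt4, known from stratified epithelium, had 1 count in 1 H2O2 library and 0 in the other 5. Per kilobase of main transcript, Mt2 stood at 524 ± 14.9 CPM and Mt1 at 382 ± 20.0 CPM in controls. Slc39a10 (8.54 ± 0.406), Mtf1 (8.34 ± 0.0698) and Slc30a1 (7.75 ± 0.219) followed on the same scale of CPM per kilobase (SD, n = 3 each). In this order the levels of Slc39a10 and Mtf1 did not differ beyond their spread. After H2O2 the metallothioneins kept the top places, with 451 ± 30.8 for Mt2 and 347 ± 25.1 for Mt1, and the other 3 genes lay between 7.83 and 8.57 on that scale.

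Transcript length bears on both metallothioneins because they are short. Over all tested genes with main transcripts of more than 500 and up to 1000 bases (752 genes), the median log2 fold change was 0.10, with 26.5% higher and 2.93% lower, so both metallothioneins moved against the median of their class. When an offset per library took account of length and GC content, Mt2 stood at -0.35 (SE 0.0426; adjusted p = 1.4e-07) and Mt1 at -0.27 (SE 0.0443; adjusted p = 1.6e-05) in edgeR's test. The median of that length class was then 0.0034. Both metallothioneins were placed by their main annotated transcripts, and which annotated starts these cells used was not tested. In the class of up to 500 bases (187 genes) the median without the offset was 0.20.

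**Figure D3:**
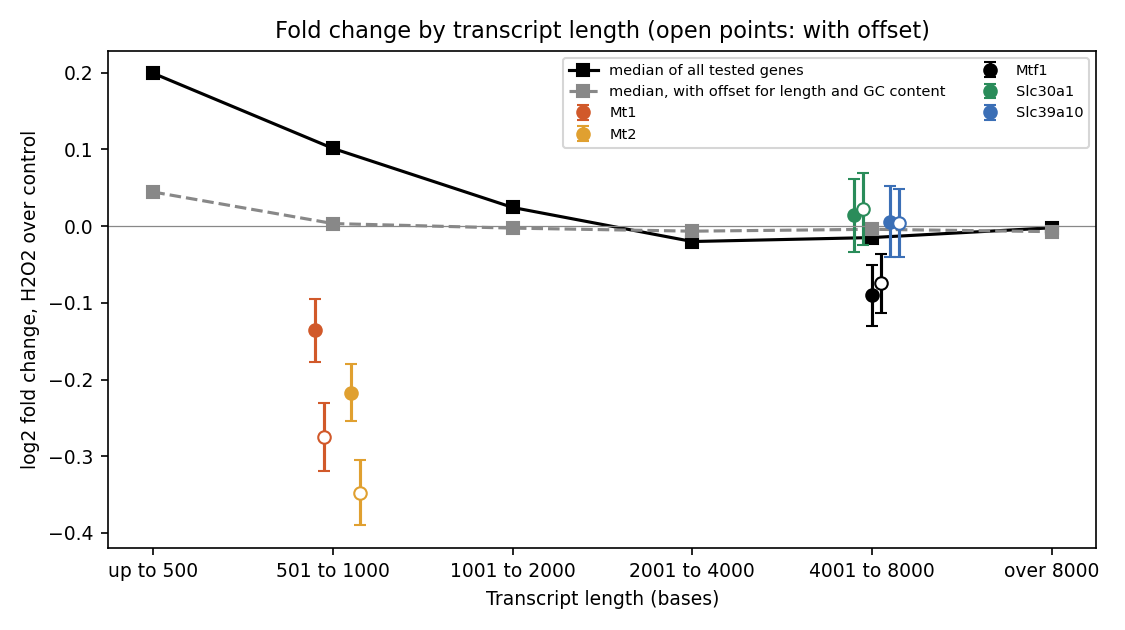
Log2 fold change, H2O2 over control (y axis), by transcript length class in bases (x axis); squares are medians over all tested genes without (black) and with (grey) the length and GC offset, and circles are the 5 genes with their SE, filled without and open with the offset. Both metallothioneins lie below the median of their length class (0.10) in either form, at -0.14 and -0.22 without the offset.

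Mtf1, which encodes the zinc sensor itself, was slightly lower with H2O2 but did not pass. Its values were 63.4, 64.2 and 63.2 CPM in controls and 59.5, 61.7 and 58.2 CPM with H2O2. All H2O2 libraries lay below all controls, as was also true of Mt2, so that the groups did not overlap for 2 of the 5 genes; over all tested genes they did not overlap, in either direction, for 34.6%. The log2 fold change was -0.09 (SE 0.0397; 95% interval -0.17 to -0.0084), with an adjusted p of 0.12 in edgeR's test. Of the exon bases of Mtf1, 8.10% lie under exons of 1110065P20Rik, which runs antisense to it.

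Slc30a1, the exporter that carries zinc out across the plasma membrane and a standard readout of MTF1 activity, showed no detectable difference. Its controls had 41.0, 41.5 and 39.3 CPM and its H2O2 libraries 42.3, 41.9 and 38.9 CPM. The groups overlapped, with replicate 3 lowest in both. The log2 fold change was 0.01 (SE 0.0476; adjusted p = 0.88 in edgeR's test), and its 95% interval of -0.08 to 0.11 bounds the change. Of its exon bases, 8.92% lie under exons of the antisense gene 1700034H15Rik.

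Slc39a10, the importer that MTF1 is known to repress, also showed no detectable difference. Its values were 44.9, 49.3 and 46.5 CPM in controls and 47.9, 48.4 and 45.1 CPM with H2O2. Control replicates 1 and 2 were the lowest and the highest of all 6 libraries. The log2 fold change was 0.0057 (SE 0.0465; adjusted p = 0.95 in edgeR's test), with a 95% interval of -0.09 to 0.10. The sign of this value and of that for Slc30a1 changed when single libraries were left out.

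Of the 10 zinc exporters of the ZnT family, which move zinc out of the cytosol into vesicles, organelles or the medium, 7 were tested and 0 passed. As 20.5% of all tested genes passed, a count of 0 among 7 is no result about the family. Their log2 fold changes ran from -0.05 (Slc30a9) to 0.17 (Slc30a2, at about 2 CPM), with a median of 0.02. The most abundant was Slc30a4, which loads zinc into vesicles, with means of 111 ± 3.28 CPM without and 112 ± 1.16 CPM after H2O2 (SD, n = 3 each). Its log2 fold change was 0.0032 (SE 0.0346) and turned to -0.0063 under the length and GC offset. Slc30a8, the exporter of insulin granules, was at 0 in all libraries.

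Of the 14 zinc importers of the ZIP family, which bring zinc into the cytosol, 13 were tested, 2 rose, 2 fell and 9 did not pass. Their median log2 fold change was 0.0057. The shares over all tested genes were 9.7% higher and 10.8% lower. Slc39a14, which also carries iron and manganese and is known to be induced by IL-6, fell the most. Its controls had 64.6, 63.5 and 65.0 CPM, and its H2O2 libraries had 51.5, 56.9 and 51.7 CPM. All H2O2 libraries were below all controls, and the log2 fold change was -0.27 (SE 0.0433; adjusted p = 4.6e-05 in edgeR's test). Slc39a11, which encodes the only member of its own ZIP subfamily, fell from 48.6 ± 1.59 to 42.8 ± 0.541 CPM (SD, n = 3 each; -0.18, SE 0.0439).

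The importer Slc39a1 was the most abundant zinc transporter and rose. Its controls had 178, 182 and 188 CPM, and its H2O2 libraries had 214, 208 and 209 CPM, with no overlap. The log2 fold change was 0.20 (SE 0.0308; adjusted p = 2.0e-05 in edgeR's test). Slc39a4, known for zinc uptake in the intestine, rose from 54.5 ± 0.922 to 59.3 ± 2.70 CPM (SD, n = 3 each; 0.12, SE 0.0426), with an adjusted p of 0.043 in edgeR's test and a range of 0.014 to 0.19 over all alternatives. That call ended by DESeq2's test and in every fit without 1 library except the fit without H2O2 replicate 2. Over both transporter families, 4 of 20 tested genes passed, close to the 20.5% of all tested genes.

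**Figure D4:**
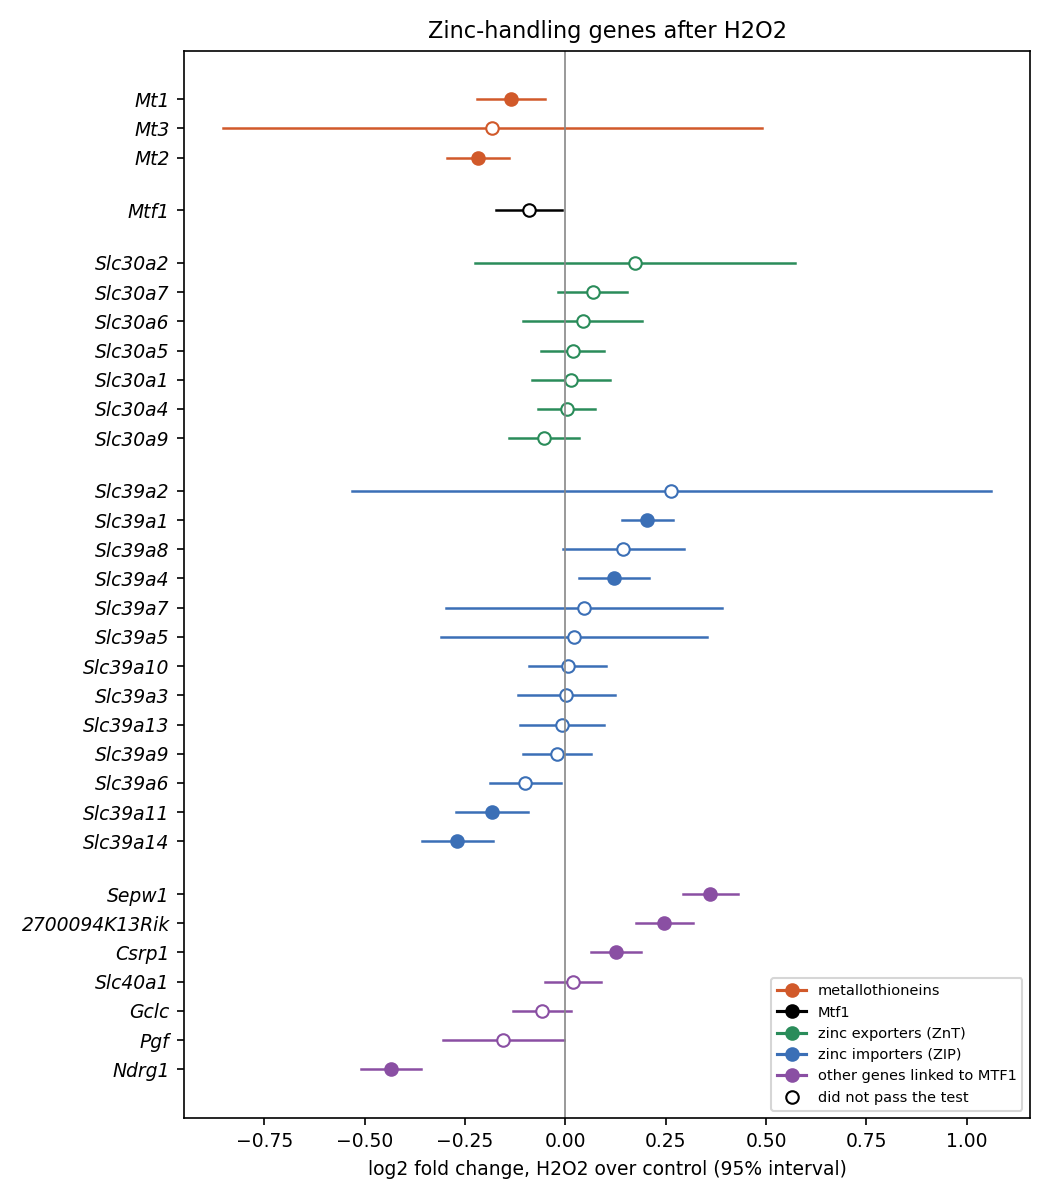
Log2 fold change, H2O2 over control (x axis, with 95% intervals), of the tested metallothioneins, Mtf1, zinc exporters, zinc importers and other genes linked to MTF1 (2700094K13Rik is an older symbol of Selenoh, and Sepw1 of Selenow); filled points passed the test. Mt1, Mt2, Slc39a11 and Slc39a14 fell, Slc39a1 and Slc39a4 rose, and 0 of 7 tested exporters passed, where 20.5% of all tested genes passed.

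Beyond transport, 7 other genes linked to MTF1 or its binding sites were all tested; 3 rose, 1 fell and 3 did not pass, with a median of 0.02. Over all tested genes 9.7% were called higher and 10.8% lower. Ndrg1, a stress-responsive gene also induced by hypoxia, fell from 108 ± 3.51 to 79.7 ± 0.636 CPM (-0.43, SE 0.0363). The selenoprotein genes Sepw1, now named Selenow, and 2700094K13Rik, now Selenoh, rose by 0.36 (SE 0.0331) and 0.25 (SE 0.0349) on the log2 scale. Both have short main transcripts of 736 and 783 bases, and under the length and GC offset they rose by 0.25 and 0.17. Csrp1, a LIM domain protein gene, rose by 0.13 (SE 0.0302). Gclc (-0.06), Pgf (-0.15) and Slc40a1 (0.02) did not pass.

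The neighbours of the metallothionein cluster were examined next. Of 9 genes listed around it, Mt3 and Mt4 included, 7 were tested, 0 rose and 2 fell, with a median of -0.04, where 10.8% of all tested genes were called lower. Nup93, a nuclear pore gene and the next protein-coding gene after Mt1, fell by 0.15 (SE 0.0317), and Herpud1, a gene of endoplasmic reticulum stress, fell by 0.20 (SE 0.0328). On the other side of the cluster Bbs2 (-0.04), Ogfod1 (-0.03) and Nudt21 (-0.04) did not pass.

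Among 8051 eligible tested genes, profiles over the 6 libraries were ranked by the root mean square distance to Mt1 and Mt2 after centring log2 CPM on each gene's mean. The profiles include both groups, so fold changes close to those of Mt1 and Mt2 follow from this choice of genes. Nearest to Mt2 were the tRNA nucleotidyltransferase gene Trnt1 (distance 0.0191), the decapping scaffold gene Edc4 (0.0226) and the RNA helicase gene Dhx30 (0.0237). Their log2 fold changes were -0.20, -0.23 and -0.22. The call of Trnt1 ended by DESeq2's test (adjusted p = 0.054) and, in edgeR, without control replicate 1 (adjusted p = 0.064) and without H2O2 replicate 1 (-0.14, adjusted p = 0.16). Nearest to Mt1 were Brd7 (0.0279), Armc8 (0.0311) and Slc7a6 (0.0323), which did not pass the test themselves (-0.10, -0.11 and -0.08). These values rest on single libraries: without control replicate 1 they were -0.05, -0.07 and -0.04, without H2O2 replicate 1 they were -0.06, -0.07 and -0.04, and without H2O2 replicate 3 they were -0.14, -0.13 and -0.13, where Brd7 passed (adjusted p = 0.028 in edgeR). All of these have longer main transcripts than the metallothioneins.

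**Figure D5:**
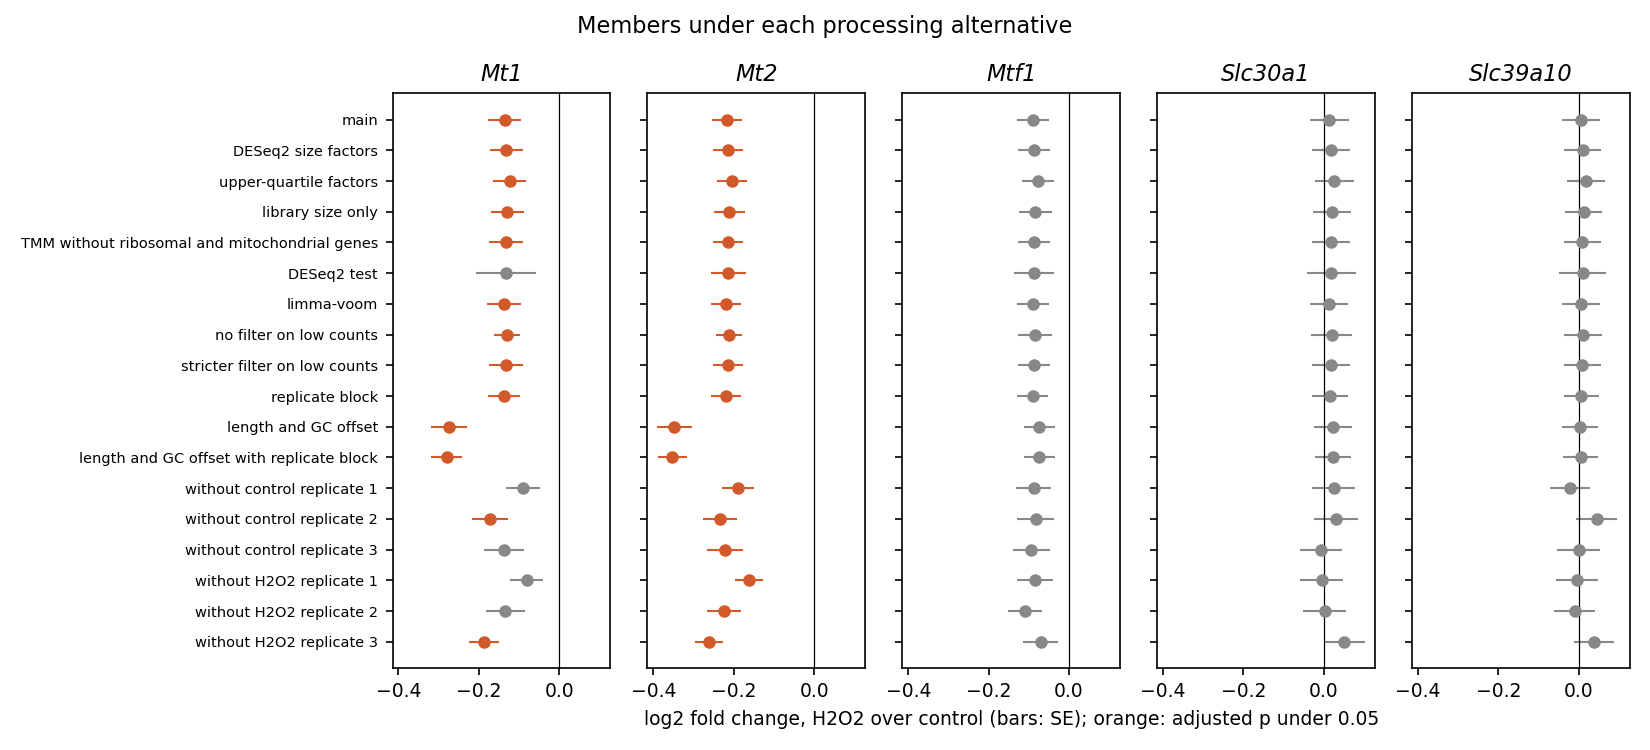
Log2 fold change, H2O2 over control (x axis, bars are SE), of the 5 genes under each processing alternative (rows); orange points had an adjusted p under 0.05. Mt2 is orange in every row, Mt1 loses it in 5 rows, and Mtf1, Slc30a1 and Slc39a10 are grey throughout.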

How the data were processed

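RNA-seq libraries of 3 control and 3 H2O2 samples were compared. The deposited tables hold raw counts, 1 row for each gene symbol. The submitters' processing notes name the tools HTSeq, DESeq2, cutadapt, bcl2fastq (2.17.1.14) and STAR (2.5.3) and the build mm10. The annotation and strand setting are not given in the sources used here. The 5 HTSeq summary classes were left out of library sizes. Shares of reads were taken of gene counts and these classes together, and the class of unaligned reads was empty in every library. Ambiguous reads were 3.17% to 3.30%. Reads aligned to more than 1 place were 11.4% to 11.7% in controls and 11.0% to 11.1% with H2O2.

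Genes were filtered with filterByExpr and tested over the whole table with edgeR 4.0.16 (R 4.3.3), TMM factors and a single term, treatment. SEs were derived from the fold change and the F statistic. Alternatives were other scaling factors, DESeq2 1.42.0, limma-voom (limma 3.58.1), other filters, the replicate number as a block, a length and GC offset per library (loess on transcript length and GC content, span 0.3; lengths for 99.1% of tested genes) and fits without each library. The methods were tested on simulated data. The genes and lists were chosen with earlier results of these data known. Named genes were the 5 followed here, up to 4 passing genes of each list (or the most abundant), the most abundant marker of each cell type, and for each of the 5 that passed, the 3 nearest profiles among genes whose log2 CPM averaged 4 or more. Other list genes given in the text were picked after their values were seen. The lists covered metallothioneins, zinc exporters and importers, other genes linked to MTF1, copper handling, glucocorticoid-responsive genes and neighbours of the cluster. The values of 1 gene on the last list are not reported here. Lengths and coordinates came from GENCODE M21 and start windows from RefSeq, both on the assembly of mm10.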

Additional observations from a re-analysis of the deposited data

How the results depend on the processing

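Mt2 fell under all 17 alternatives, from -0.35 to -0.16 (log2), and kept its call, the highest adjusted p being 0.0022 in edgeR. Mt1 fell under all of them too, from -0.28 to -0.08, but lost its call by DESeq2's test (-0.13); without single libraries it ran from -0.19 to -0.081. Mtf1 did not pass under any alternative (-0.11 to -0.07). Slc30a1 ran from -0.0072 to 0.051 and Slc39a10 from -0.022 to 0.044 without single libraries, and neither was called under any alternative. Slc30a4 changed sign under the length and GC offset (-0.0063), under that offset and the replicate block together (-0.0063), and without single libraries, where it ran from -0.016 to 0.021. Zinc transporters that rose numbered 1 by DESeq2's test and 1 to 2 without single libraries, and those that fell 2 to 3. Genes higher over the transcriptome numbered 891 to 1178 and genes lower 926 to 1313 without single libraries, against 1254 and 1395 with all; the lowest count of lower genes came without H2O2 replicate 1. DESeq2's test called 1018 higher and 1026 lower. With upper-quartile factors 55.0% of the called genes were higher, against 47.3%. The Mt1 to Mt2 ratio stayed higher with H2O2, by 0.06 to 0.10 on the log2 scale without single libraries. Of 23 other named genes, 15 kept their direction and side of the threshold under all alternatives run. Atox1 was not called under the length and GC offset.

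Same-numbered libraries did not deviate together (correlations of 0.0022, 0.03 and -0.03 for replicates 1 to 3), and not every library correlated best with its own number. With the replicate block 1294 genes were higher and 1444 lower, Mt1 stood at -0.14 and Mt2 at -0.22, and the mean of the log2 differences of the Mt1 to Mt2 ratio between same-numbered libraries was 0.08. The block changed no call of the 5 genes.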

Other observations

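Copper, the other metal that metallothioneins bind, is handled by its own set of transporters and chaperones. Of 12 such genes, 10 were tested, 2 rose and 0 fell, with a median log2 fold change of 0.03; the share called is close to the 20.5% of all tested genes, so it is no result about copper genes. Cp, which encodes the copper-carrying ferroxidase ceruloplasmin, had means of 146 ± 1.64 CPM without and 156 ± 3.04 CPM after H2O2 (SD, n = 3 each; 0.10, SE 0.0316); its call ended without control replicate 2, control replicate 3 or H2O2 replicate 3 (adjusted p of 0.11, 0.078 and 0.082 in edgeR). Atox1, a copper chaperone gene with a main transcript of 541 bases, had means of 57.7 ± 4.48 and 65.8 ± 1.54 CPM (SD, n = 3 each; 0.19, SE 0.0466), and a log2 fold change of 0.04 under the length and GC offset. Its call also ended without control replicate 2 (adjusted p = 0.072 in edgeR). The copper importer Slc31a1 (-0.05) and the copper pump Atp7a (0.14) did not pass.

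Metallothionein genes are also known targets of the glucocorticoid receptor. Of 12 genes listed as glucocorticoid-responsive, 11 were matched and tested, 0 rose and 4 fell, with a median of -0.06, where 9.7% of all tested genes were called higher and 10.8% lower. Dusp1 (-0.43, SE 0.0513), Per1 (-0.18, SE 0.0354), Klf9 (-0.14, SE 0.0381) and Sgk1 (-0.14, SE 0.0412) fell. Dusp1 also answers to mitogens and stress, and Per1 is a clock gene. Tsc22d3 (0.08), Fkbp5 (-0.06), Zbtb16 (0.02) and the receptor gene Nr3c1 (0.02) did not pass. Klf9 lost its call without control replicate 3 (adjusted p = 0.07 in edgeR), and Sgk1 in 4 of the fits without 1 library.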
